A study of Mus musculus with 6 samples.

Results

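Genes for enzymes that write or erase histone marks, and for subunits of the Polycomb complexes, were followed in mouse embryonic stem cells (mESCs) grown under 3 culture conditions. The group was a fixed list of 46 gene symbols, and all 46 were found among the 28584 symbols of the deposited table. It held 18 histone deacetylases, of which 11 are zinc-dependent and 7 are sirtuins, 7 acetyltransferases, 9 methyltransferases, 6 Polycomb subunits and 6 demethylases. Of the members, 45 passed the filter of at least 1 TPM in at least 2 libraries and were tested. The remaining member, Hdac9, lay between 0.287 and 0.472 TPM in the 6 libraries and was not tested.

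Acetyl groups on histone tails are placed by acetyltransferases and removed by deacetylases, and they mark active enhancers and promoters. Methyl groups can mark active or silent chromatin according to the lysine that carries them. Polycomb repressive complex 2 (PRC2) methylates lysine 27 of histone H3 through EZH1 or EZH2 with EED and SUZ12, and Polycomb repressive complex 1 (PRC1) binds this mark through CBX proteins and ubiquitinates histone H2A. In mESCs both complexes lie on the silent promoters of developmental genes.

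The mESCs came from blastocysts of a C57BL/6 and 129S6 cross and were first grown on feeder cells, which were mouse embryonic fibroblasts that mitomycin C had stopped from dividing. They were then moved to a basic medium with fetal bovine serum. LIF-ESCs received LIF, leukemia inhibitory factor, at 1000 U/mL, OSM-ESCs received oncostatin M (OSM), a related cytokine, instead of LIF, and -LIF-ESCs received neither. Poly-A RNA of 2 samples per group was sequenced after culture to P10, and the 6 libraries were deposited as TPM, in which the reads of a gene are divided by its length and each library is brought to a fixed total. One line was used. The study calls the 2 samples of a group biological replicates, and the labels do not say whether they were separate cultures, so p-values measure only the spread between these samples.

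Reads recovered from TPM and exon length came to between 20712941 and 28994417 per library. All 10 stem cell markers examined, Pou5f1, Sox2 and Nanog among them, were present in every library, with summed levels of 5091 to 5118 TPM in -LIF-ESCs, 6927 to 6996 TPM in LIF-ESCs and 6500 to 6503 TPM in OSM-ESCs. The largest part of each sum was Dppa5a, at 2882 to 3090 TPM. In both comparisons with -LIF-ESCs 8 of the 10 were higher as deposited and Nanog was lower, at 436 and 431 TPM in -LIF-ESCs, 289 and 291 TPM in LIF-ESCs and 270.4 and 252 TPM in OSM-ESCs. Markers of other cell types moved between the same groups as the members. The 4 epithelial keratins summed to 2311 to 2332 TPM in -LIF-ESCs, 33.0 to 34.9 TPM in LIF-ESCs and 43.5 to 48.0 TPM in OSM-ESCs. The 16 fibroblast markers, which the feeder cells would also express, summed to 126 to 135 TPM in -LIF-ESCs, 477 to 484 TPM in LIF-ESCs and 667 to 676 TPM in OSM-ESCs, and none of the 16 was at 0 in any library. In both comparisons with -LIF-ESCs 14 of the 16 were higher and 2 were lower. Summed mesoderm markers lay between 70.7 and 74.7 TPM in -LIF-ESCs and between 3.49 and 4.70 TPM in the other groups, where the one value of 0 was Mesp1 in 1 LIF library, and primed epiblast markers lay between 162 and 166 TPM and between 35.4 and 41.6 TPM. Primitive endoderm markers summed to 8.50 to 9.75 TPM in -LIF-ESCs, 24.0 to 24.2 TPM in LIF-ESCs and 17.3 to 17.5 TPM in OSM-ESCs. Foxa2 among them went the other way, from 0.932 and 0.725 TPM in -LIF-ESCs to between 0.450 and 0.655 TPM in the other groups. Neural markers summed to 27.8 to 30.5 TPM in -LIF-ESCs and 54.5 to 58.9 TPM in the other groups. Most of that sum was Tubb3, at 27.0 to 29.4 TPM and 47.5 to 51.8 TPM. Neurog2 was at 0 in 1 library of each group. The part of these cells in the results was not tested. In bulk RNA, fewer cells of a type and less RNA per cell cannot be told apart.

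The first question was which members differ between cells with a cytokine and cells without one. Against -LIF-ESCs, limma at a Benjamini-Hochberg adjusted p under 0.05 called 29 of the 45 tested members higher, 6 lower and 10 neither way in LIF-ESCs. Over all 18556 genes tested the same rule called 42.2% higher and 25.9% lower. In OSM-ESCs 30 members were higher, 7 were lower and 8 were neither, beside 42.9% and 25.4% of all genes. Both comparisons use the same pair of -LIF libraries, so their agreement is not independent. The median log2 fold change of the members was 0.37 with LIF and 0.34 with OSM, where the medians of all genes were 0.17 and 0.18.

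With a further demand for a log2 fold change of 1 or more in size, 11 members were higher and 2 lower in LIF-ESCs, beside 13.3% and 8.09% of all genes. The counts in OSM-ESCs were 10 and 2, beside 14.2% and 7.86%. Since the typical gene was itself higher in the cytokine groups, the values were also rescaled by the median ratio of the libraries, which sets the typical gene to no change. As deposited, at the same adjusted p and 1.5-fold, 17 members were higher and 3 lower in either cytokine group. Beside these stood 26.5% and 15.6% of all genes with LIF and 27.1% and 15.2% with OSM. After rescaling 21 members were higher and 10 lower in LIF-ESCs, beside 33.8% and 33.7% of all genes. In OSM-ESCs 21 were higher and 11 lower, beside 33.7% and 33.6%. Across both comparisons and both scalings 20 members stayed higher and 6 stayed lower. The lower ones were Hdac5, Hdac7, Ezh1, Suz12, Kdm1a and Kat2a. The share of all genes under this joint rule was not taken, so whether 20 and 6 are unusual cannot be told. The sign turned with the scaling for Hdac3, Sirt7, Ring1, Suv39h1 and Ehmt2 in LIF-ESCs and for Hdac3, Hdac6, Hdac11, Suv39h1 and Suv39h2 in OSM-ESCs.

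**Figure D1:**
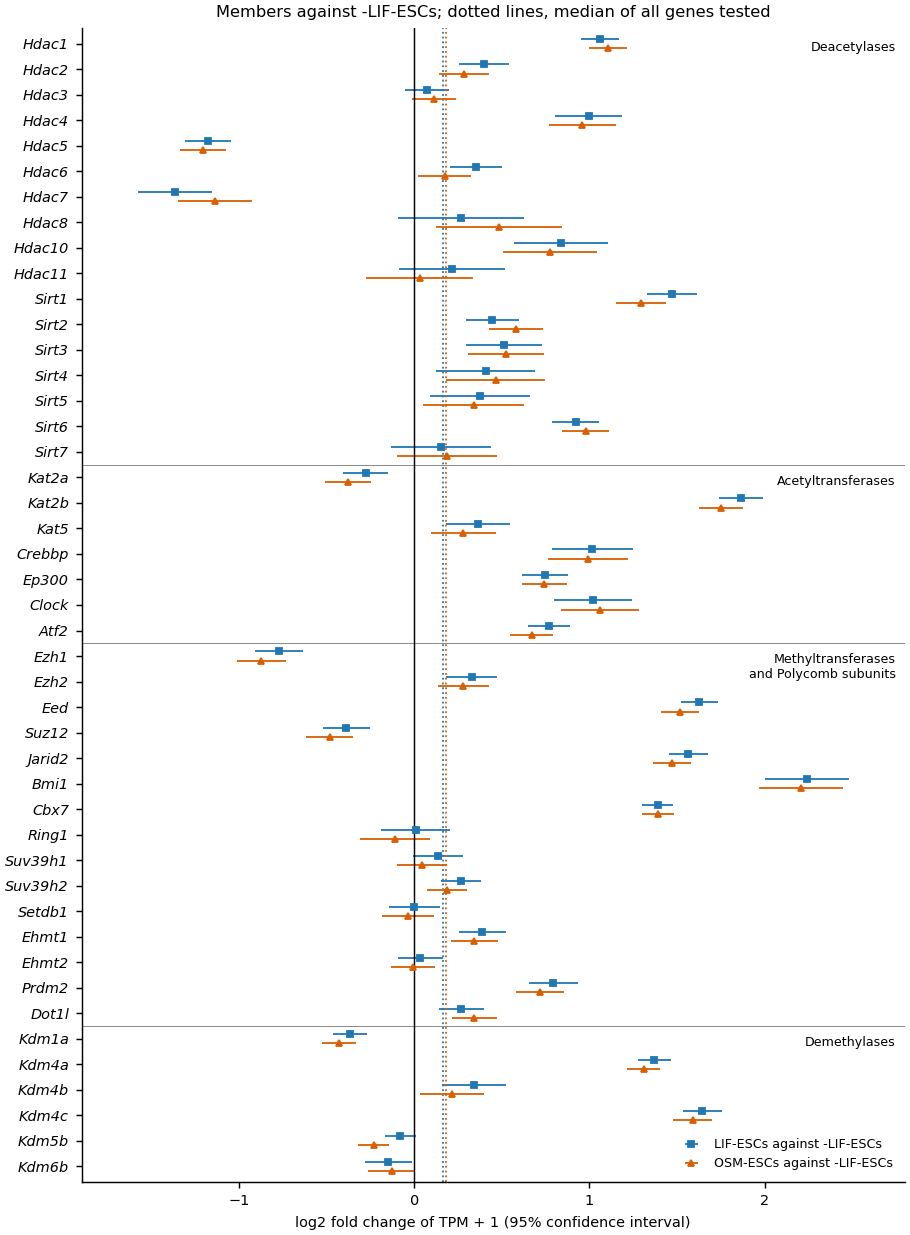
Log2 fold change of TPM + 1 for the 45 tested members in LIF-ESCs (squares) and OSM-ESCs (triangles) against -LIF-ESCs, with 95% confidence intervals from limma, by enzyme class. The dotted lines are the medians of all genes tested, 0.17 and 0.18, and Bmi1 lies farthest to the right and Hdac7 and Hdac5 farthest to the left.

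Among the zinc-dependent deacetylases Hdac1 was the most abundant in every library. HDAC1 and its paralog HDAC2 are the catalytic subunits of the NuRD, Sin3 and CoREST complexes. Hdac1 was at 103 and 109 TPM in -LIF-ESCs, 225 and 220 TPM in LIF-ESCs and 235 and 224 TPM in OSM-ESCs. The groups with a cytokine lay above -LIF-ESCs without overlap, and the log2 fold change was 1.06 (SE 0.04, limma adjusted p = 2.4e-05) in LIF-ESCs and 1.11 (SE 0.04, adjusted p = 2.0e-05) in OSM-ESCs. Hdac2 ranged from 68.2 to 92.5 TPM over the libraries. Its log2 fold changes of 0.40 and 0.29 passed limma's test at adjusted p of 0.0018 and 0.0065, and the second did not pass after rescaling, where it was 0.08. The TPM ratio of Hdac1 to Hdac2 was therefore 1.51 and 1.55 in the -LIF libraries, 2.43 and 2.44 in the LIF libraries and 2.64 and 2.79 in the OSM libraries. Hdac3, the subunit of the NCoR complexes, differed by less than the test could call, at 29.7 to 33.3 TPM in all libraries. Hdac8 lay between 2.73 and 4.92 TPM with log2 fold changes of 0.27 and 0.48 (limma adjusted p = 0.15 and 0.028). Its difference between the cytokine groups did not pass (limma adjusted p = 0.54), and after rescaling neither comparison passed. Summed over the 4 class I genes, the level was 209 TPM in -LIF-ESCs, 350 TPM in LIF-ESCs and 352 TPM in OSM-ESCs, as group means.

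The class IIa deacetylases, which shuttle between nucleus and cytoplasm and repress MEF2 targets, moved in opposite directions. Hdac4 was at 6.11 and 6.86 TPM in -LIF-ESCs, 13.5 and 14.3 TPM in LIF-ESCs and 13.8 and 13.3 TPM in OSM-ESCs. Hdac5 was at 26.8 and 27.3 TPM in -LIF-ESCs, 11.2 and 11.6 TPM in LIF-ESCs and 11.3 and 11.0 TPM in OSM-ESCs. Thus Hdac5 was the leading gene of the class, with 60.5% of its summed TPM, without a cytokine, and Hdac4 led with 47.6% in LIF-ESCs and was also the first in OSM-ESCs. The log2 fold change of Hdac4 was 1.00 (SE 0.08, limma adjusted p = 0.00017) in LIF-ESCs and 0.96 (SE 0.08, adjusted p = 0.00020) in OSM-ESCs, and Hdac5 fell by 1.18 (SE 0.05, limma adjusted p = 3.0e-05) and by 1.21 (SE 0.05, adjusted p = 2.7e-05) on the log2 scale. Hdac7 also fell with a cytokine. It was at 11.2 and 10.4 TPM in -LIF-ESCs, 3.76 and 3.38 TPM in LIF-ESCs and 4.41 and 4.28 TPM in OSM-ESCs, so that the mean of -LIF-ESCs was 3.02 times that of LIF-ESCs and 2.48 times that of OSM-ESCs. Its log2 fold changes were -1.37 (SE 0.08, limma adjusted p = 8.3e-05) and -1.14 (SE 0.08, adjusted p = 0.00015). Of the exon bases of Hdac4, 22.4% are shared with Gm26720 on the opposite strand, a gene at 1.37 to 3.79 TPM, and the strand setting of the counting is not given in the sources used here.

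Bases upstream of the start sites of Hdac5 and Hdac7 are shown because these were the 2 deacetylases that passed a log2 fold change of 1 downward under both scalings. LIF and OSM signal through STAT3, so the 250 bases before each RefSeq start (GRCm38.p6) were searched on both strands for TTCCNGGAA, a palindromic STAT3 motif. RefSeq promoters were found for 40 of the 46 member genes, 54 promoters in all, and 1 of them held the motif, where 300 of all 32851 promoters (0.913%) and 0.971% of the promoters of tested genes did. The window with the match lies on the minus strand at chr15:97831768-97832017, before a start inside the Hdac7 gene, and the match begins 46 bases before that start. Capitals mark the motif in the Hdac7 window, and CG dinucleotides in the Hdac5 window on the minus strand at chr11:102230173-102230422. A match is a string of letters and not a shown binding site.
Hdac7: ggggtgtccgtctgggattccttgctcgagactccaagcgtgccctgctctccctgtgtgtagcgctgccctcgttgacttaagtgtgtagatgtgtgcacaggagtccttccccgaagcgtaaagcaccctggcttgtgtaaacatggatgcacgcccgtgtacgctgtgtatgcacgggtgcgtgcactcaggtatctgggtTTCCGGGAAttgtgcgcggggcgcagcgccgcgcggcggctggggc
Hdac5: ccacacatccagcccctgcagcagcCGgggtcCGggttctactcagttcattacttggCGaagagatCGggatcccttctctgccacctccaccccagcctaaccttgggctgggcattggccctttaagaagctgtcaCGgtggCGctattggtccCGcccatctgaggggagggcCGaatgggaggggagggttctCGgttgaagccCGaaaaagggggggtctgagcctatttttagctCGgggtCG

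Both class IIb genes were higher in each comparison as deposited. HDAC6, a cytoplasmic tubulin deacetylase, was encoded at 21.3 and 20.8 TPM in -LIF-ESCs, 28.1 and 26.2 TPM in LIF-ESCs and 23.1 and 24.6 TPM in OSM-ESCs. Its log2 fold changes were 0.35 and 0.17 (limma adjusted p = 0.0035 and 0.046), and neither passed after rescaling, where the second was -0.02. Hdac10 rose from a level of 1.59 to 1.91 TPM, by 0.84 (SE 0.11, limma adjusted p = 0.0012) in LIF-ESCs and 0.77 (SE 0.11, adjusted p = 0.0016) in OSM-ESCs, which in TPM was 2.24 and 2.11 times the mean of -LIF-ESCs. Hdac11, the one class IV gene, ranged from 4.63 to 6.39 TPM and passed neither test.

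Sirtuins remove acyl groups with NAD+ as co-substrate. Of the 7, 6 were higher in each comparison with -LIF-ESCs, and 4 (Sirt1, Sirt2, Sirt3 and Sirt6) stayed higher in both after rescaling. As deposited 42.2% of all genes were higher with LIF and 42.9% with OSM, and after rescaling 33.8% and 33.7%. Sirt1, a nuclear deacetylase of histones and of p53, was at 26.5 and 26.2 TPM in -LIF-ESCs, 74.9 and 75.2 TPM in LIF-ESCs and 69.7 and 62.9 TPM in OSM-ESCs. The 2 cytokine groups lay far above -LIF-ESCs, and the log2 fold change was 1.47 (SE 0.06, limma adjusted p = 2.0e-05) in LIF-ESCs and 1.30 (SE 0.06, adjusted p = 2.8e-05) in OSM-ESCs. Sirt6, which deacetylates lysine residues of histone H3, rose from 10.6 and 10.8 TPM by a log2 fold change of 0.92 in LIF-ESCs and 0.98 in OSM-ESCs (limma adjusted p = 7.0e-05 and 5.6e-05). Mitochondrial Sirt3 and mainly cytoplasmic Sirt2 rose by log2 fold changes of 0.45 to 0.58. Sirt4 and Sirt5, also mitochondrial, lay between 1.99 and 4.95 TPM and passed as deposited but not after rescaling, and the nucleolar Sirt7 passed neither. The sum of the 7 was 60.6 TPM in -LIF-ESCs, 129 TPM in LIF-ESCs and 122 TPM in OSM-ESCs, and Sirt1 made up 43.5%, 58.3% and 54.2% of it.

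**Figure D2:**
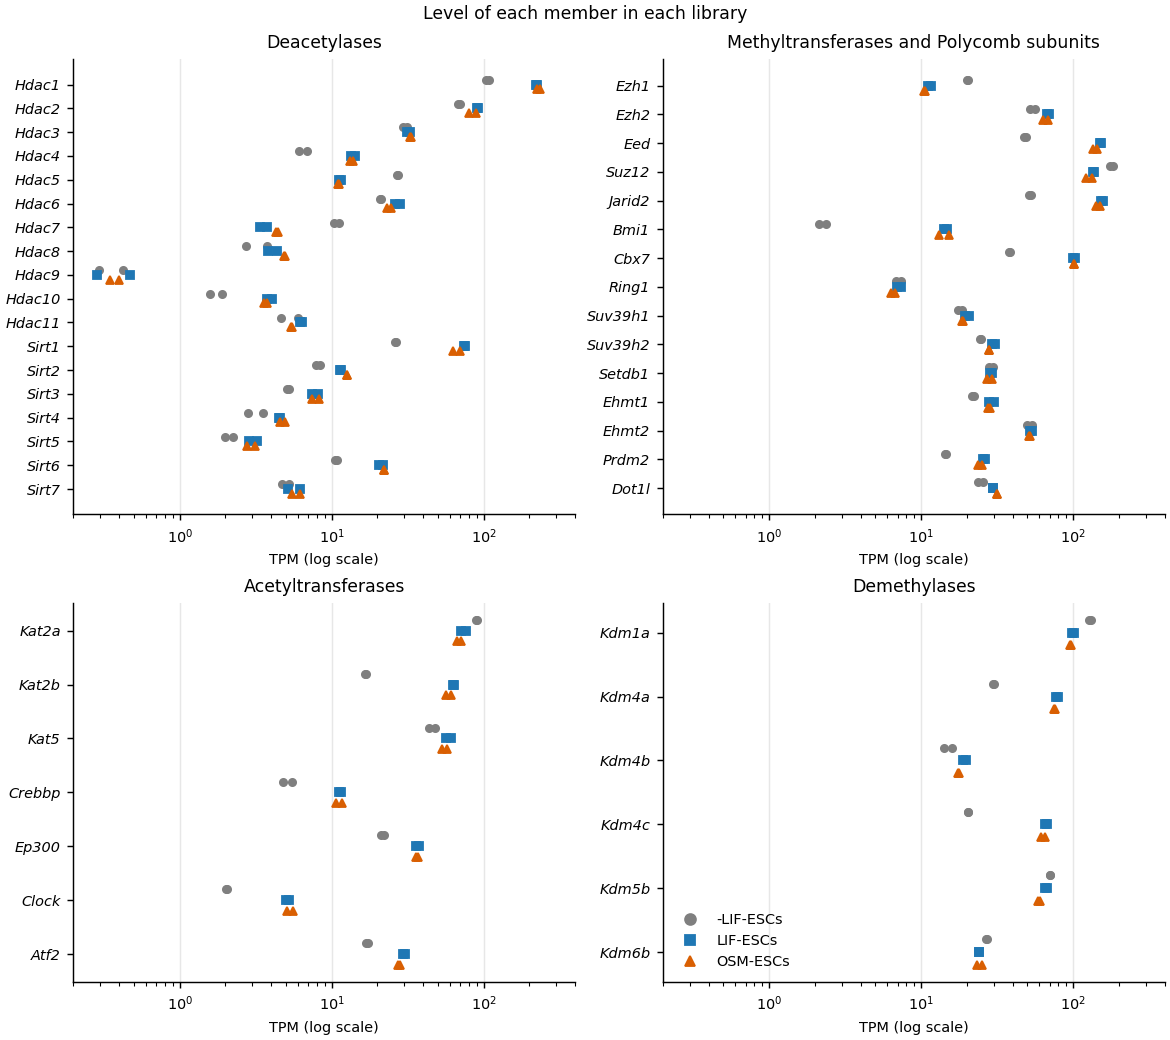
TPM on a log axis of the 46 members in each of the 6 libraries, with -LIF-ESCs as circles, LIF-ESCs as squares and OSM-ESCs as triangles. Squares and triangles lie close together for most genes, and Hdac9 is the one member under 1 TPM in all libraries.

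All 7 acetyltransferases passed the test against -LIF-ESCs in both comparisons as deposited, 6 higher and 1 lower. Of all genes, 42.2% were higher and 25.9% lower with LIF, and 42.9% and 25.4% with OSM. After rescaling 5 acetyltransferases were higher and 1 lower in each comparison. The shares of all genes were then 33.8% higher and 33.7% lower with LIF, and 33.7% and 33.6% with OSM. KAT2A (GCN5) and KAT2B (PCAF) are paralogs that serve as alternative catalytic subunits of the SAGA and ATAC complexes, and their genes moved apart. Kat2b was at 16.8 and 16.5 TPM in -LIF-ESCs, 63.8 and 63.1 TPM in LIF-ESCs and 60.8 and 56.3 TPM in OSM-ESCs. Kat2a was at 91.0 and 88.9 TPM in -LIF-ESCs, 76.7 and 71.3 TPM in LIF-ESCs and 70.8 and 67.2 TPM in OSM-ESCs. The TPM ratio of Kat2a to Kat2b thus went from 5.42 and 5.38 in -LIF-ESCs to between 1.13 and 1.20 in the other 4 libraries. For Kat2b the log2 fold change was 1.87 (SE 0.05, limma adjusted p = 7.9e-06) in LIF-ESCs and 1.75 (SE 0.05, adjusted p = 8.6e-06) in OSM-ESCs, while Kat2a fell by 0.28 (SE 0.05, limma adjusted p = 0.0050) and by 0.38 (SE 0.05, adjusted p = 0.0015) on the log2 scale.

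The enhancer coactivators Crebbp and Ep300, which encode CBP and p300, rose together. Crebbp was at 5.52 and 4.77 TPM in -LIF-ESCs, 11.2 and 11.6 TPM in LIF-ESCs and 11.8 and 10.6 TPM in OSM-ESCs, with log2 fold changes of 1.02 (SE 0.09, limma adjusted p = 0.00032) and 0.99 (SE 0.09, adjusted p = 0.00035). Ep300 rose by 0.75 and 0.74 from a mean of 21.6 TPM. Clock, a circadian transcription factor with acetyltransferase activity, was at 2.04 and 2.02 TPM in -LIF-ESCs, 5.26 and 5.04 TPM in LIF-ESCs and 5.56 and 5.09 TPM in OSM-ESCs. No library of a cytokine group reached down to the -LIF level, and its log2 fold changes were 1.02 and 1.06 (SE 0.09 each, limma adjusted p = 0.00028 and 0.00024). Atf2, a stress-responsive factor of the CREB family, rose by 0.77 and 0.67. Kat5, which encodes TIP60, rose by 0.36 and 0.28 as deposited but did not pass after rescaling, and 12.1% of its exon bases are shared with Rnaseh2c on the opposite strand.

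Of the 9 methyltransferases, 5 were higher, 1 was lower and 3 passed neither way in each comparison as deposited. None of them reached a log2 fold change of 1 as deposited. The shares of all genes were 42.2% higher and 25.9% lower with LIF, and 42.9% and 25.4% with OSM. After rescaling 2 were higher and 3 lower with LIF, beside 33.8% and 33.7% of all genes. With OSM 3 were higher and 3 lower, beside 33.7% and 33.6%, and Ezh1 then had a log2 fold change of -1.06. Ezh1 and Ezh2 encode the alternative catalytic subunits of PRC2. Ezh1 was at 20.0 and 20.2 TPM in -LIF-ESCs, 11.6 and 11.1 TPM in LIF-ESCs and 10.4 and 10.6 TPM in OSM-ESCs, which gave log2 fold changes of -0.77 (SE 0.05, limma adjusted p = 0.00013) and -0.87 (SE 0.05, adjusted p = 8.7e-05). Ezh2 was at 52.4 and 56.4 TPM in -LIF-ESCs, 67.3 and 69.6 TPM in LIF-ESCs and 68.7 and 63.8 TPM in OSM-ESCs. It was above Ezh1 in every library, but its rise of 0.33 and 0.28 (SE 0.06 each, limma adjusted p = 0.0041 and 0.0075) did not pass after rescaling, where it was 0.14 and 0.08. The mean TPM ratio of Ezh1 to Ezh2 was 0.370 without a cytokine, 0.166 with LIF and 0.159 with OSM.

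Of the 6 genes for methyltransferases of histone H3 lysine 9, 3 (Prdm2, Ehmt1 and Suv39h2) were higher in both comparisons as deposited. Prdm2 and Ehmt1 were also higher after rescaling. Of all genes, 42.2% were higher with LIF and 42.9% with OSM as deposited, and 33.8% and 33.7% after rescaling. These counts are near those shares. Prdm2, which encodes RIZ, rose by 0.79 and 0.72 (SE 0.05 each, limma adjusted p = 0.00012 and 0.00018) from 14.3 and 14.6 TPM. Ehmt1, which encodes GLP, rose by 0.39 and 0.34, while its partner Ehmt2, which encodes G9a, had group means of 51.9, 53.2 and 51.6 TPM for -LIF-ESCs, LIF-ESCs and OSM-ESCs and passed neither test as deposited. Setdb1, the enzyme that silences endogenous retroviruses with TRIM28, lay between 27.0 and 29.6 TPM in all libraries. After rescaling Setdb1 and Ehmt2 were lower in both comparisons, by 0.15 to 0.23 on the log2 scale. Suv39h1 passed in no comparison under either scaling, and Suv39h2 rose by 0.27 and 0.19 as deposited but did not pass after rescaling. Dot1l, which encodes the enzyme for lysine 79 of histone H3, rose by 0.27 and 0.34, and its rise in LIF-ESCs did not pass after rescaling.

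The largest change of the whole list was that of Bmi1, a Polycomb subunit. A log2 fold change of 1 upward was passed by 4 of the 6 subunits in both comparisons and under both scalings. As deposited, 13.3% of all genes passed it with LIF and 14.2% with OSM. Bmi1, also called Pcgf4, encodes a RING finger partner of the PRC1 ubiquitin ligase. It was at 2.38 and 2.14 TPM in -LIF-ESCs, 14.1 and 14.7 TPM in LIF-ESCs and 15.2 and 13.0 TPM in OSM-ESCs, 6.39 and 6.24 times the mean of -LIF-ESCs. The log2 fold change was 2.24 (SE 0.09, limma adjusted p = 2.7e-05) in LIF-ESCs and 2.21 (SE 0.09, adjusted p = 2.7e-05) in OSM-ESCs. Cbx7, which encodes a chromodomain reader of methylated lysine 27, was at 37.6 and 38.5 TPM in -LIF-ESCs, 102 and 100.1 TPM in LIF-ESCs and 101 and 102 TPM in OSM-ESCs. The difference from -LIF-ESCs was 1.39 on the log2 scale for both groups (SE 0.04 each, limma adjusted p = 7.2e-06 and 6.5e-06). Ring1, one of the paralogous genes for the ligase itself, lay between 6.33 and 7.42 TPM in all libraries and did not pass as deposited.

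The PRC2 core subunits did not move as a unit. EED binds methylated lysine 27 and stimulates the enzyme, SUZ12 holds the complex together, and JARID2 is an accessory subunit that helps to bring PRC2 to its targets. Eed was at 47.6 and 49.1 TPM in -LIF-ESCs, 152 and 151 TPM in LIF-ESCs and 145 and 136 TPM in OSM-ESCs. Jarid2 was at 51.3 and 52.6 TPM in -LIF-ESCs, 158 and 153 TPM in LIF-ESCs and 150.1 and 141 TPM in OSM-ESCs. Both were about equally abundant in every group. Their log2 fold changes were 1.63 (SE 0.04, limma adjusted p = 7.7e-06) and 1.52 (SE 0.04, adjusted p = 8.5e-06) for Eed and 1.57 (SE 0.04, limma adjusted p = 8.6e-06) and 1.47 (SE 0.04, adjusted p = 9.3e-06) for Jarid2. Suz12 went the other way, from 174 and 182 TPM in -LIF-ESCs to 137 and 135 TPM in LIF-ESCs and 133 and 121 TPM in OSM-ESCs, and fell by 0.39 (SE 0.05, limma adjusted p = 0.0016) and by 0.48 (SE 0.05, adjusted p = 0.00067) on the log2 scale.

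Because these genes were measured in the same libraries, their TPM ratios do not depend on the scaling. The ratio of Eed to Suz12 was 0.273 and 0.270 in the -LIF libraries, 1.11 and 1.12 in the LIF libraries and 1.09 and 1.12 in the OSM libraries. That of Jarid2 to Suz12 was 0.294 and 0.289 in -LIF-ESCs and between 1.13 and 1.16 in the other 4 libraries. For Ezh2 to Suz12 it was 0.301 and 0.310 in -LIF-ESCs and between 0.491 and 0.526 in the others. Suz12 was at rank 1 among the 46 members in -LIF-ESCs and was at rank 4 in both other groups, and Eed rose from rank 10 to rank 3. These ratios were chosen after the values had been seen. Of the exon bases of Suz12, 3.60% are shared with Gm26563 on the opposite strand, and of those of Eed, 6.82% with E230029C05Rik.

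**Figure D3:**
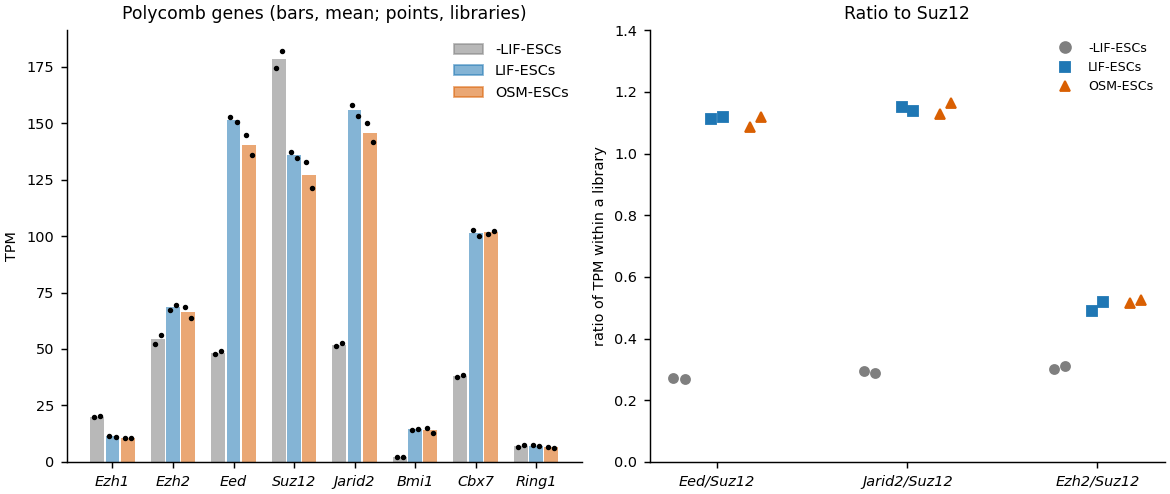
Left, TPM of 8 Polycomb genes, with bars for the mean of 2 libraries and points for the libraries, starting at 0. Right, TPM ratios of Eed, Jarid2 and Ezh2 to Suz12 in each library, where the ratios of Eed and Jarid2 lie under 0.3 in -LIF-ESCs and above 1 in the other groups.

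Bases upstream of Bmi1, which rose most, and of Suz12, which fell, are shown to set the starts of a rising and a falling Polycomb gene side by side. Capitals mark CG dinucleotides. The Bmi1 window is on the plus strand at chr2:18676768-18677017 with 21 of them, and the Suz12 window is on the plus strand at chr11:79992856-79993105 with 37. The median over the 54 member promoters was 18.5, over the promoters of tested genes 15 and over all 32851 promoters 6, and the Hdac5 and Hdac7 windows shown above hold 12 and 21. Neither Polycomb window holds the STAT3 motif searched.
Bmi1: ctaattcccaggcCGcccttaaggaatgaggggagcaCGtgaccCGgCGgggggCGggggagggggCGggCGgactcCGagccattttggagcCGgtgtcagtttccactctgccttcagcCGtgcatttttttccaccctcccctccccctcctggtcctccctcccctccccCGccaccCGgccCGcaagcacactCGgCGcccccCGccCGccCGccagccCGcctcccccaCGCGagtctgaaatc
Suz12: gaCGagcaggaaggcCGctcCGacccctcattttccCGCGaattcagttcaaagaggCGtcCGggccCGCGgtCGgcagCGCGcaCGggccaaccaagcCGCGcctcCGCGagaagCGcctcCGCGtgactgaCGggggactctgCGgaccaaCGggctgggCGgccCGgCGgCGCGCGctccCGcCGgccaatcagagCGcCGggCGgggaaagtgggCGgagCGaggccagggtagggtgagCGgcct

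Among the demethylases, members of the same KDM4 family differed in size of change. The KDM4 enzymes remove methyl groups from lysines 9 and 36 of histone H3. Kdm4c was at 20.4 and 20.5 TPM in -LIF-ESCs, 66.9 and 65.1 TPM in LIF-ESCs and 65.2 and 61.7 TPM in OSM-ESCs, with log2 fold changes of 1.65 and 1.59 (SE 0.04 each, limma adjusted p = 8.0e-06 and 8.2e-06). Kdm4a was at 29.7 and 30.1 TPM in -LIF-ESCs, 77.7 and 80.1 TPM in LIF-ESCs and 75.8 and 75.3 TPM in OSM-ESCs, with log2 fold changes of 1.37 and 1.31 (SE 0.04 each, limma adjusted p = 7.9e-06 and 8.3e-06). Kdm4b was at 14.2 and 16.1 TPM in -LIF-ESCs, 19.9 and 18.9 TPM in LIF-ESCs and 17.9 and 17.6 TPM in OSM-ESCs. Its smaller differences, 0.34 and 0.22 (SE 0.07 each, limma adjusted p = 0.0087 and 0.042), did not pass after rescaling, where they were 0.16 and 0.03.

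Kdm1a, which encodes LSD1, the eraser of methyl marks on lysine 4 of histone H3 in the CoREST complex, was lower with a cytokine. It lay at 127 and 132 TPM in -LIF-ESCs with group means of 99.7 TPM for LIF-ESCs and 95.6 TPM for OSM-ESCs, and fell by 0.37 and by 0.43 on the log2 scale (SE 0.04 each, limma adjusted p = 0.00054 and 0.00030). Kdm5b, which erases the same lysine's trimethyl mark, was at 70.1 and 70.1 TPM in -LIF-ESCs, 66.9 and 65.6 TPM in LIF-ESCs and 60.2 and 58.9 TPM in OSM-ESCs. Its fall of 0.23 in OSM-ESCs passed (limma adjusted p = 0.0023). Its log2 fold change of -0.08 in LIF-ESCs did not pass as deposited (limma adjusted p = 0.091) but did after rescaling. Kdm6b, which encodes the lysine 27 demethylase JMJD3, ranged from 23.5 to 27.0 TPM and was not called as deposited. After rescaling it was called lower, by 0.33 in both comparisons.

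Related genes were then set against each other within each library, in 11 pairs. The log2 ratio of TPM + 1 moved by at least 1 between -LIF-ESCs and both other groups in 6 pairs. It moved by 2.17 in both comparisons for Hdac4 over Hdac5, by -2.15 and -2.13 for Kat2a over Kat2b, and by 2.10 and 2.07 for Bmi1 over Pcgf2, which encodes the PRC1 paralog MEL18 and lay between 47.0 and 54.9 TPM. Smaller moves were those of Ezh1 over Ezh2, -1.10 and -1.15, and of Kdm4a over Kdm4b, 1.03 and 1.09. The ratio of Hdac7 over Hdac9 moved by -1.39 and -1.16, and Hdac9 was at 0.422 and 0.293 TPM in -LIF-ESCs, 0.472 and 0.287 TPM in LIF-ESCs and 0.398 and 0.349 TPM in OSM-ESCs. In 10 of the 11 pairs the -LIF libraries lay apart from all others, by little for Suv39h1 over Suv39h2 and for Crebbp over Ep300. The exception was Ring1 over its paralog Rnf2, with means of -3.45 without a cytokine, -3.47 with LIF and -3.44 with OSM. No such share was taken over pairs of other genes, so whether 10 of 11 is unusual cannot be told. Of all genes singly, 42.2% were called higher and 25.9% lower with LIF, which is a different measure. The ratios are descriptions and were not tested.

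**Figure D4:**
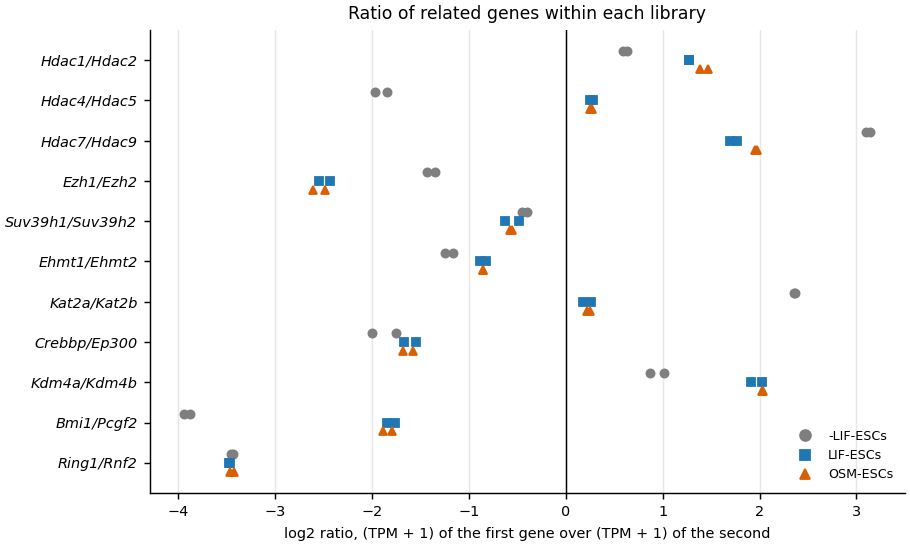
Log2 ratio of TPM + 1 for 11 pairs of related genes in each of the 6 libraries, with -LIF-ESCs as circles, LIF-ESCs as squares and OSM-ESCs as triangles. In 6 pairs the circles lie at least 1 unit from the other symbols by group mean, and the symbols of Ring1/Rnf2 lie on top of each other.

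A wider list of 88 genes of the same pathways that are no members was read in the same way, and 86 passed the filter. Against -LIF-ESCs 55 were higher and 15 lower in LIF-ESCs, beside 42.2% and 25.9% of all genes. In OSM-ESCs 54 were higher and 15 lower, beside 42.9% and 25.4%. After rescaling the counts were 47 and 23 with LIF, beside 33.8% and 33.7% of all genes. With OSM they were 51 and 24, beside 33.7% and 33.6%. A log2 fold change of 1 upward was passed as deposited by 14 of the 86 with LIF and 16 with OSM. Of all genes, 13.3% and 14.2% passed it. The risers named below are among these 14 and 16. Among the other Polycomb subunits Pcgf5, a RING finger partner in variant PRC1, was the one gene of the 86 that passed a log2 fold change of 1 downward as deposited, by 1.38 and by 1.46 from 9.29 and 10.0 TPM. Epop and Mtf2 encode accessory subunits of PRC2. Epop rose by 1.43 and 1.39, and Mtf2 by 1.01 and 0.87. The PRC1 genes Phc1, Rybp and Phc3 rose by 1.01 to 1.35.

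Of the 24 other methyltransferases, 19 were higher and 2 lower in each comparison as deposited, beside the shares of all genes given below. The lower ones were Setd7, which fell by 0.85 and by 0.67, and Nsd2, which fell by 0.38 and by 0.28. After rescaling 13 were higher and 3 lower with LIF and 16 and 3 with OSM. Among writers of lysine 4 methylation Setd1b rose by 1.93 and 2.05 from 2.60 and 2.78 TPM, and Kmt2c by 1.65 and 1.71. The lysine 36 enzymes Nsd1 and Ash1l rose by 1.13 and 1.18 and by 0.89 and 1.05, and Prmt1, the main arginine methyltransferase, by 0.94 and 1.01. The lysine 27 demethylase Kdm6a rose by 1.04 and 1.00, and Jmjd1c by 1.20 and 1.25. Among acetyltransferases and nuclear receptor coactivators Kat6b, Ncoa1 and Ncoa3 rose by 1.28 to 1.38. Hat1 fell by 0.58 and by 0.63. Of the 17 partners of deacetylases 5 were higher and 5 lower with LIF and 5 and 6 with OSM as deposited. Beside these stood 42.2% and 25.9% of all genes with LIF and 42.9% and 25.4% with OSM. After rescaling 5 partners were higher and 10 lower with either cytokine. The shares of all genes were then 33.8% and 33.7% with LIF and 33.7% and 33.6% with OSM. Chd3, a NuRD remodeler, rose by 0.68 and 1.02, or by 0.51 and 0.83 after rescaling.

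The second question was whether the 2 cytokines differ. In OSM-ESCs against LIF-ESCs, 0 of the 45 tested members passed limma's test at a Benjamini-Hochberg adjusted p under 0.05, beside 0.463% of all genes called higher and 0.129% called lower. At an unadjusted p under 0.05 there were 5, beside 15.3% of all genes, and 9 after rescaling, beside 16%. The log2 fold changes ran from -0.19 to 0.23 with a median of -0.05, and 13 of 45 were above 0, where the median of all genes was 0.01 and 52.5% of them were above 0. After rescaling 11 of 45 were above 0, beside 49.0% of all genes. For all 45 the 95% confidence interval lay within 1.5-fold in both directions. The widest interval was that of Hdac8, from -0.14 to 0.58, and the next was that of Hdac11, from -0.49 to 0.12.

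The 5 members with the smallest p were Kdm5b, Sirt1, Hdac6, Hdac7 and Eed. Kdm5b was lower in both OSM libraries than in both LIF libraries, with a log2 fold change of -0.15 (limma unadjusted p = 0.0067, adjusted p = 0.16). Sirt1 and Hdac6 were each lower by 0.18 on the log2 scale (limma unadjusted p = 0.023 and 0.027, adjusted p = 0.25 and 0.26). Hdac7 was higher by 0.23 (limma unadjusted p = 0.039, adjusted p = 0.30), and Eed was lower by 0.11 (limma unadjusted p = 0.046, adjusted p = 0.32). In each of the 5 the libraries of the groups did not overlap. Their choice by smallest p makes that likely, so it is no further support for a difference. When the recovered reads were tested with limma's voom, a setting chosen after seeing the data, 3 members were called lower in OSM-ESCs at an adjusted p under 0.05, Jarid2, Kdm5b and Sirt1, beside 2.58% of all genes called lower by that test. Of the 16 fibroblast markers, all had a log2 fold change above 0 in OSM-ESCs against LIF-ESCs and 5 passed the adjusted test, and their part in these small differences was not tested.

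**Figure D5:**
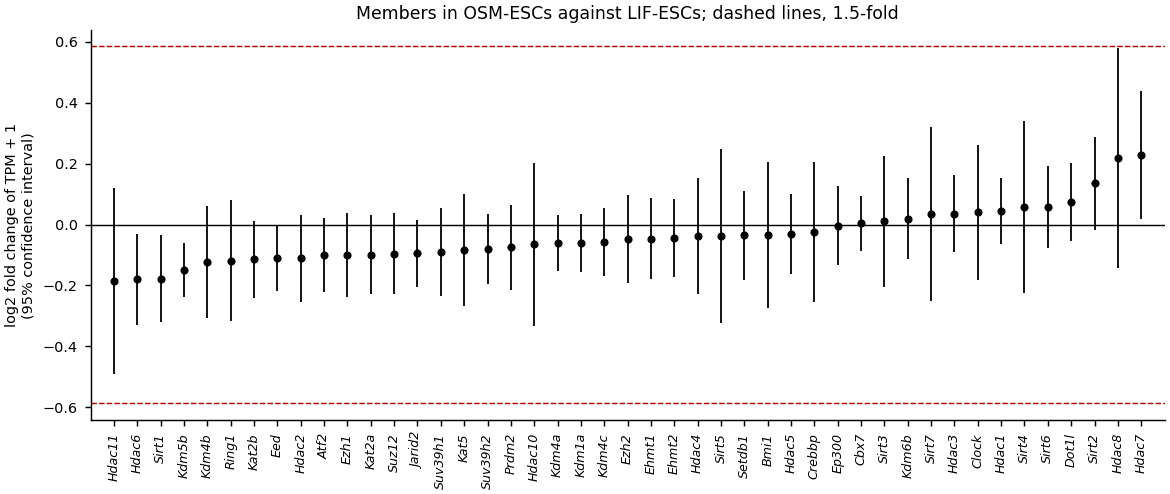
Log2 fold change of TPM + 1 in OSM-ESCs against LIF-ESCs for the 45 tested members, in order of size, with 95% confidence intervals from limma. All intervals lie between the dashed lines at 1.5-fold, and 5 of them leave out 0.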

How the data were processed

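Poly-A RNA of 6 mESC libraries, 2 per group, was analysed from 1 table. The authors trimmed, aligned and counted the reads with Trimmomatic, HISAT2 and featureCounts on mm10, per the submitters' processing notes, and deposited TPM for 28584 symbols. The annotation, the strand setting and the step from counts to TPM are not given in the sources used here. The authors tested counts with DESeq2, which was not repeated. The extraction protocol in the labels names another tissue, the ovary, and the labels do not tie a passage to a sample. P10 comes from the paper. OSM titles carry a 10 that the labels do not explain, so no OSM dose is given.

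A pseudocount of 1 was added to TPM, and the log2 values of the 18556 genes that reached 1 TPM in 2 or more libraries were fitted with limma 3.58.1 under R 4.3.3 (lmFit, eBayes with a trend). All 3 groups entered the fit, which left 3 residual degrees of freedom. Benjamini-Hochberg adjustment of p-values ran over all of these genes. The pseudocount understates changes of low genes. Exon lengths came from GENCODE M21 (GRCm38), in which 99.4% of symbols were found once. Reads recovered from TPM and these lengths were whole within 0.02 reads for 94.6% of values. The mean chi-square per gene between replicates was 2.03 to 3.49, above the sampling noise, so both were kept. Python 3.11.15 with numpy 2.4.6, pandas 2.3.3 and matplotlib 3.10.9 made the tables and plots. The steps were tested on simulated data.

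The members, classes, pairs, wider pathway lists and marker lists were chosen with earlier results of these data known, and the lists came from general knowledge. Library values are given for members past an adjusted p of 0.05 and a log2 fold change of 1, for the 5 members with the smallest p between OSM-ESCs and LIF-ESCs and for pairs whose log2 ratio moved by at least 1. Suz12 and a few others were added after their values were seen. Alternatives were a pseudocount of 0.1, no filter, a filter of 5 TPM, no trend, a replicate block, removal of 37 mitochondrial genes, rescaling by the median ratio, a fit of 2 groups at a time, a 1.5-fold rule, each library left out and voom.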

Additional observations from a re-analysis of the deposited data

How the results depend on the processing

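Under the rule of an adjusted p under 0.05 and 1.5-fold, 17 members were higher and 3 lower against -LIF-ESCs with LIF, and also 17 and 3 with OSM. Of all genes, 26.5% were higher and 15.6% lower with LIF, and 27.1% and 15.2% with OSM. Rescaling by the median ratio raised the members called lower to 10 with LIF and 11 with OSM, since it sets the typical gene to 0. It called 33.7% and 33.6% of all genes lower. By voom on recovered reads, added after seeing the data, 3 members were lower with OSM than with LIF, and the cause was not tested. With a replicate block limma called 29 higher and 6 lower with LIF, 28 and 7 with OSM, and 0 between OSM and LIF. Of all 18556 genes that fit called 7612 higher and 4612 lower with LIF, 7738 and 4551 with OSM, and 0 between OSM and LIF. Deviations of libraries with the same replicate number correlated at -0.04, -0.02 and 0.03, so the numbers were not taken to pair the libraries. Leaving out 1 library keeps only 1 in its group, so counts of calls from those fits are not read here. None of the 18 members given by library for their size of change or their pair reversed against -LIF-ESCs under these alternatives. Kdm4b lost its call in OSM-ESCs under 11 of them and in LIF-ESCs after rescaling and without LIF replicate 1 (adjusted p = 0.052 in limma), and Ezh2 lost its call after rescaling. With 2 libraries per group and 3 residual degrees of freedom, the low genes Hdac8, Hdac11, Sirt5, Sirt7 and Sirt4 had the widest intervals. Exon bases are shared with another gene in 20 members and exceed 10% in 5 (Hdac4, Hdac11, Sirt3, Suv39h1 and Kat5).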
